A study of Mus musculus with 30 samples.

Results

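Ganglion cells of the uninjured retina, whose axons make up the optic nerve, were compared between eyes given sgRNAs against Ssrp1 (the SSRP1KO group, 3 libraries) and eyes given non-targeting sgRNAs (the NT group, 3 libraries), neither with an optic nerve crush. All genes of the autosomes, chromosomes 1 to 19, were taken, which gave 22796 of the 24033 symbols in the count table. Of these, 15965 passed a filter on low counts and were tested, 16326 when SSRP1KO replicate 3 was left out, and 4668 had no count in any of the 6 uncrushed libraries. Per the labels' protocols, the mice of both groups carried LSL-Cas9-GFP and Vglut2-Cre, so that Cas9 and GFP were made in cells with Vglut2 activity, and both groups received AAV2 into the vitreous with an mCherry marker beside the sgRNAs. Retinas were dissociated with papain, and live cells were sorted on CD90.2, the product of Thy1, on GFP, on mCherry or on a combination. The labels do not give the combination for a library, the age or sex of the mice, or whether a group's libraries are separate animals. The p-values therefore measure spread between libraries, part of which may be technical. The other 24 libraries of the study, 3 each of NT and SSRP1KO at 1, 2, 3 and 4 days post crush (dpc), entered the fit for its estimate of spread and served as a separate set in which to look up the same genes.

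SSRP1 and SPT16, encoded by Supt16, form FACT, a histone chaperone that loosens nucleosomes ahead of RNA polymerase and puts them back behind it. FACT also takes part in DNA replication and repair, and in adult neurons, which no longer divide, its role in transcription is the one that can be read from RNA. Ganglion cells are long-lived projection neurons whose identity is held by transcription factors of the Pou4f family and whose axonal injury sets off a programme that includes Atf3, Jun and p53 targets.

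The 6 uncrushed libraries held 14571605 to 30816525 counts each, with 16135 to 17430 genes detected. Sex and 2 of the libraries touch the results. The libraries of the 2 groups differed in sex: RNA from the Y chromosome and Xist gave a male share of 94.8%, 99.99% and 99.98% in NT and of 0.124%, 0% and 0.087% in SSRP1KO, so that sex and sgRNA cannot be told apart within them. SSRP1KO replicate 3 correlated least with its group (mean r = 0.955, against 0.961 and 0.967 for the other two and 0.981 to 0.983 in NT), and its 22 markers of microglia and macrophages summed to 2109 CPM, counts scaled to the library size, against 429 and 718 in SSRP1KO replicates 1 and 2 and 298, 198 and 175 in NT. NT replicate 3 stood apart in interferon-stimulated genes, whose sum was 3551 CPM, against 284 and 299 in NT replicates 1 and 2. Ganglion cell markers were abundant in all 6 libraries (9981 to 16570 CPM summed over 26 markers), rod markers summed to 1153 to 2085 CPM, and lens markers to 4.25 to 12 CPM except in SSRP1KO replicate 3, where they reached 115 CPM.

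Ssrp1 itself, at 85037234 to 85047109 of chromosome 2 (plus strand, GRCm38), stood at 64.7, 61.0 and 67.9 CPM across NT and 43.4, 49.2 and 66.9 CPM across SSRP1KO. The first 2 SSRP1KO libraries lay below all NT libraries and the third lay among them. The log2 difference of -0.28 ± 0.23 did not pass edgeR's quasi-likelihood test (adjusted p = 0.522), nor did that of -0.48 without SSRP1KO replicate 3 (0.264). In the crush libraries the same gene was lower by a mean log2 difference of -1.04 (edgeR adjusted p = 1.9e-06), and the difference between the 2 values did not pass (0.152). The level of the mRNA does not measure cutting, because many indels leave an mRNA in place. Supt16, on chromosome 14, stood at 165, 158 and 175 CPM across NT and 161, 89.4 and 115 CPM across SSRP1KO, a log2 difference of -0.44 that also missed the threshold (edgeR adjusted p = 0.072).

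In SSRP1KO, 230 autosomal genes were higher (1.44% of those tested) and 396 were lower (2.48%) at an adjusted p under 0.05 in the edgeR fit of 30 libraries. The higher genes were few in counts and far apart between groups: their median level in NT was 1.32 CPM, 101 of them averaged under 1 CPM in NT, and their median log2 difference was 2.37. For genes this low in NT a lower level in SSRP1KO was hardly detectable at this depth. The lower genes were abundant and moved less, with a median NT level of 155 CPM and a median log2 difference of -0.67, against 12.6 CPM and 0.0039 over all genes tested.

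Without SSRP1KO replicate 3, 374 genes were higher (2.29%) and 764 lower (4.68%). The calls shared by both fits were 150 of the higher genes (65.2% of the 30-library list and 40.1% of the list without replicate 3) and 336 of the lower genes (84.8% and 44.0%), and no gene was called in opposite directions. Replicate 3 worked in 2 ways. In 64 of the 230 higher genes it stood at over 2 times the level of both other SSRP1KO libraries, in 27 it lay within or below the NT range, and among the 396 lower genes it was the SSRP1KO library nearest NT in 247. The count fell to 357, 176 and 164 without NT replicates 1, 2 and 3, to 364 and 290 without SSRP1KO replicates 1 and 2, to 4 when the 6 uncrushed libraries were fitted alone, and to 7 with the male share of each library as a covariate, where unadjusted p was under 0.05 for 2083 and 1922 genes against 3303 in the 30-library fit. Fitted alone, the 5 libraries without SSRP1KO replicate 3 gave 566 calls. With DESeq2's test 53.2% of the 1170 calls were higher, against 36.7% of the 626.

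**Figure D1:**
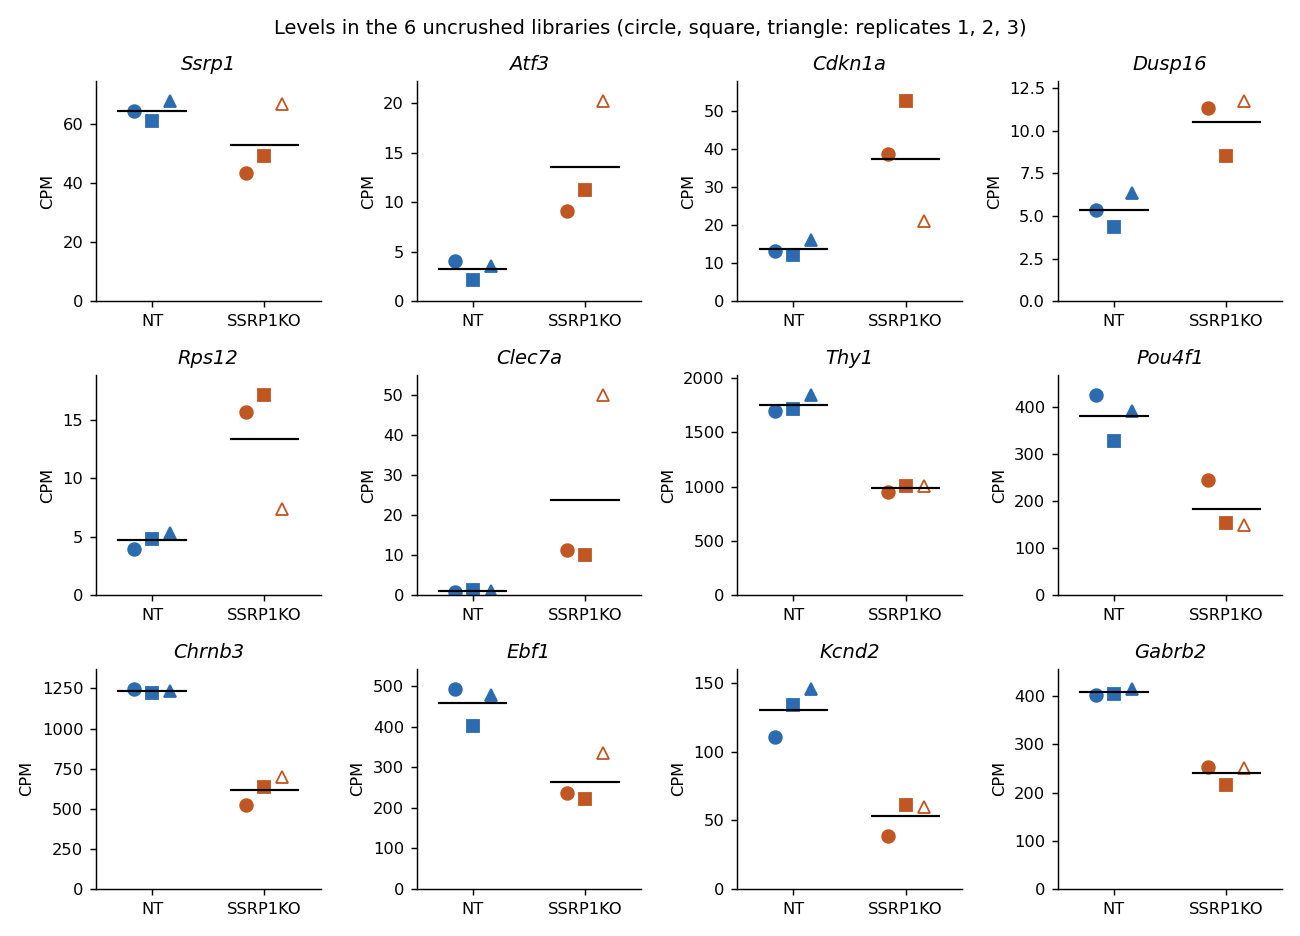
Level in CPM (y axis, from 0) of 12 genes in each of the 6 uncrushed libraries, with points for libraries, shaped by replicate and open for SSRP1KO replicate 3, and lines for group means. Chrnb3 lay between 1222 and 1249 CPM in NT and between 521 and 701 CPM across SSRP1KO, with no overlap, while Ssrp1 of SSRP1KO replicate 3 lay within the NT range.

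The genes higher in SSRP1KO included transcripts of the injury and stress programme. Atf3, a transcription factor induced by axon damage, stood at 4.10, 2.11 and 3.56 CPM across NT and 9.07, 11.3 and 20.2 CPM across SSRP1KO. All 3 SSRP1KO libraries lay above all NT libraries, and the log2 difference was 2.05 ± 0.29 (edgeR adjusted p = 0.000408) and 1.64 without replicate 3 (0.000772). Cdkn1a, which encodes the p53-induced cell cycle inhibitor p21, stood at 13.3, 12.3 and 16 CPM across NT and 38.8, 52.6 and 21.1 CPM across SSRP1KO, higher by 1.44 ± 0.25 (0.00315). Here replicate 3 was the lowest SSRP1KO library, and without it the difference was 1.72 (7.33e-05). Dusp16, a phosphatase that acts on JNK, stood at 5.35, 4.33 and 6.35 CPM against 11.3, 8.55 and 11.8 CPM, higher by 0.98 ± 0.18 (0.00409).

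Among 32 p53 targets, 5 were higher and none lower, with a list median of 0.29. Apaf1, the scaffold of the apoptosome, stood at 8.75 to 11.6 CPM across NT and 17.4 to 23.3 CPM across SSRP1KO, higher by 1.05 ± 0.24 (edgeR adjusted p = 0.0139). Trp53cor1, a long non-coding RNA induced by p53, had no count in NT and stood at 1.06, 0.369 and 0 CPM across SSRP1KO, which is at least 11.5-fold higher than 3 counts over the NT group. The growth factor gene Gdf15 and the kinase gene Plk2 were the others. Without replicate 3 the count was 4, since Plk2 no longer passed. Bbc3, which encodes the death protein PUMA, stood at 2.10, 2.92 and 2.75 CPM against 1.53, 2.40 and 1.62 CPM and was not called. Among 25 genes of the apoptosis machinery Apaf1 was the only one called, and Hrk, a BH3-only gene induced by axon injury, passed when replicate 3 was left out (log2 1.72, edgeR adjusted p = 0.0103), having stood at 2.65, 2.06 and 1.69 CPM across NT and 6.99, 7.02 and 1.5 CPM across SSRP1KO.

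The integrated stress response, in which the kinases of eIF2alpha raise ATF4 and CHOP, gave 3 higher and 0 lower genes of 36, Atf3, Gdf15 and Trib3, with a list median of 0.24. That median did not hold in each setting: it was -0.0075 with the male share as a covariate, where 17 of 36 lay above 0, and -0.28 in SSRP1KO replicate 3 alone. Ddit3, which encodes CHOP, did not move with them: it stood at 22, 15 and 21.5 CPM across NT and 12.6, 13.2 and 7.73 CPM across SSRP1KO, with an edgeR adjusted p of 0.0815. Without replicate 3 the list held 5 higher genes, Psat1 and Psph of serine synthesis being added, and 1 lower gene, Vldlr. Of 31 genes associated with axon regeneration, Atf3 and Creb5 were higher and Klf7 and Stmn2 lower. Without replicate 3 Creb5 lost its call (edgeR adjusted p = 0.183), Sox11 was higher, and Basp1 and Tubb3 joined the lower genes. Jun stood at 53.5, 76.5 and 118 CPM against 72.0, 60.7 and 96.7 CPM, overlapping throughout, and of the 23 genes of the DLK, JNK and AP-1 pathway only Dusp16 was higher, with Atf2 and Map2k4 lower. At 4dpc against no crush in NT, which uses the same uncrushed NT libraries, the log2 difference of Atf3 was 7.38 and that of Cdkn1a 5.36. How near the uncrushed SSRP1KO level came to that of injured NT cells varied by gene. Atf3 averaged 13.5 CPM in uncrushed SSRP1KO, against 45.5 CPM at 1dpc and 541 CPM at 4dpc in NT. Cdkn1a averaged 37.5 CPM, against 56.7 and 569 CPM. Apaf1 averaged 20.2 CPM, above the 12.65 CPM of NT at 1dpc and below the 29.1 CPM at 4dpc.

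**Figure D2:**
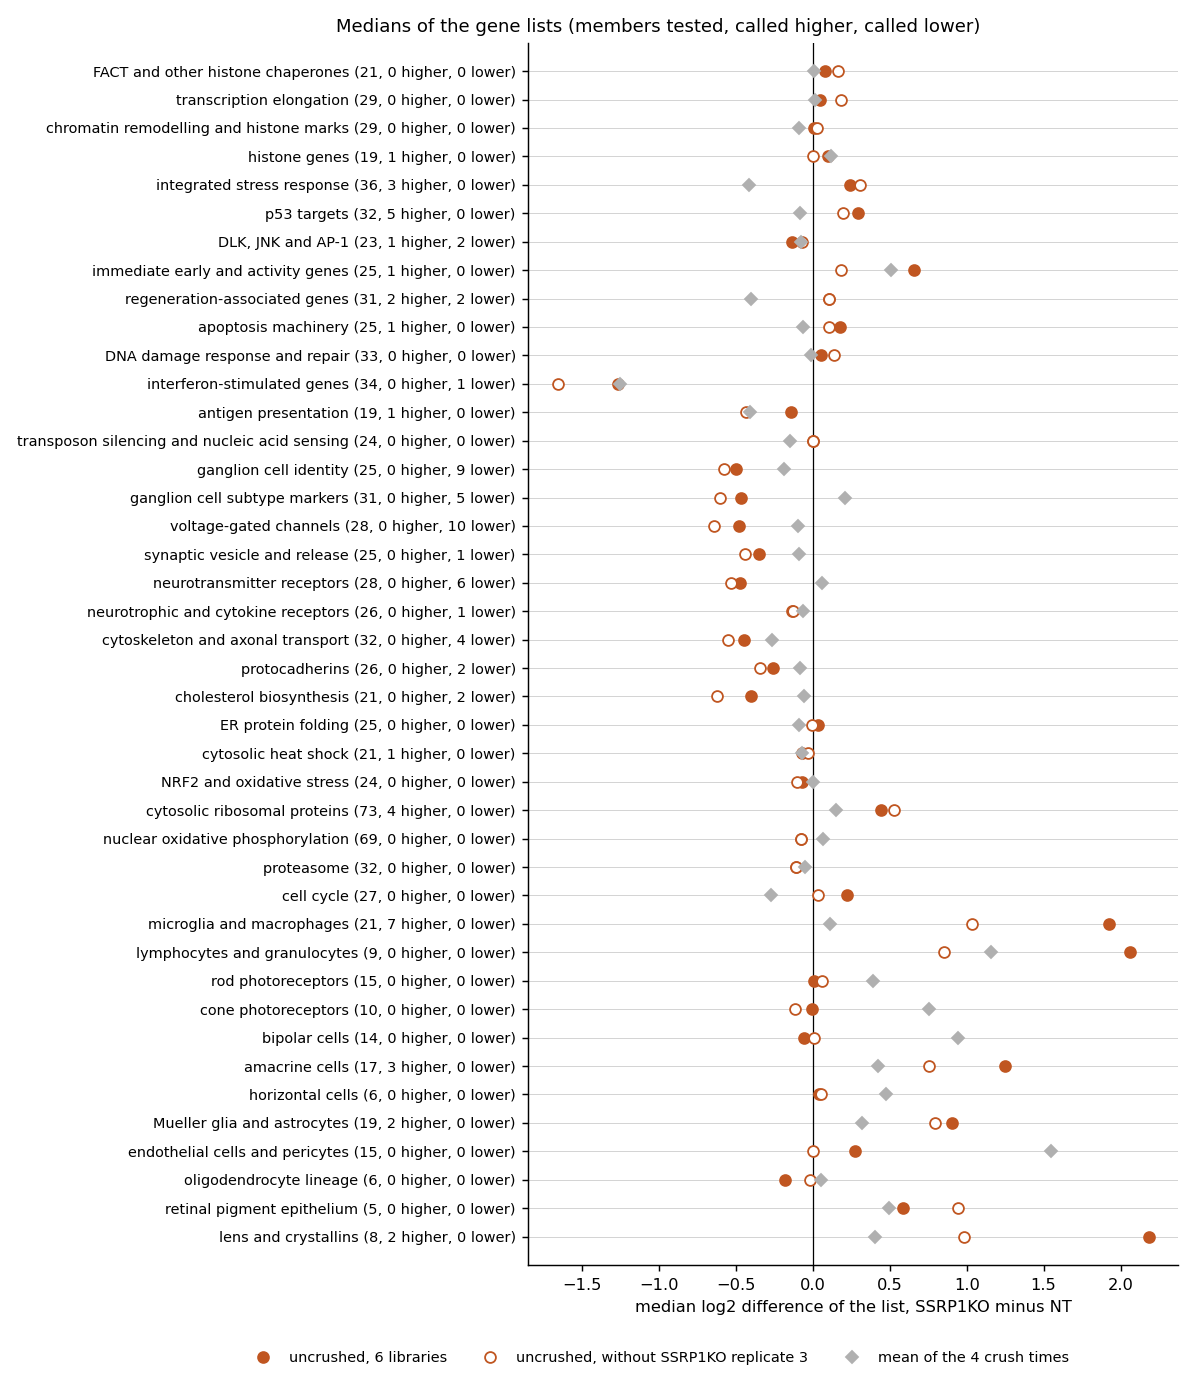
Median log2 difference, SSRP1KO minus NT (x axis), of each gene list (y axis, with members tested and called), for the 6 uncrushed libraries (filled circles), the same without SSRP1KO replicate 3 (open circles) and the mean of the 4 crush times (diamonds). The ganglion cell identity list lay at -0.50 with 9 of 25 members lower, and the microglia and macrophage list moved from 1.93 to 1.03 when replicate 3 was left out.

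Genes that define ganglion cells were lower in SSRP1KO. Of 25 identity genes tested, 9 were lower and 0 higher, with a list median of -0.50, and without replicate 3 the count was 10 and the median -0.57. Among all tested genes above 100 CPM, the level of many neuronal genes described here, 11.1% were called lower and the median was -0.24. In bulk RNA, fewer cells of a type and less RNA per cell cannot be told apart. Pou4f1, a homeodomain factor that keeps ganglion cell fate, stood at 425, 326 and 390 CPM across NT and 245, 153 and 149 CPM across SSRP1KO, a log2 difference of -1.06 ± 0.21 (edgeR adjusted p = 0.00642). The groups did not overlap. Chrnb3, a nicotinic receptor subunit of ganglion cells, stood at 1249, 1222 and 1235 CPM against 521, 635 and 701 CPM, lower by a log2 difference of -0.997 ± 0.16 (0.00129). Each SSRP1KO library was thus well under the narrow NT range.

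Rbpms, an RNA-binding protein used as a pan-ganglion cell marker, stood at 539, 515 and 571 CPM across NT and 257, 322 and 357 CPM across SSRP1KO (log2 -0.80 ± 0.16, edgeR adjusted p = 0.00665). Ebf1, a helix-loop-helix factor, stood at 494, 402 and 479 CPM against 236, 222 and 337 CPM (-0.79 ± 0.13, 0.00201). Elavl2, Pou4f2, Sncg, Stmn2 and Thy1 were the other members called. Without replicate 3 Pou4f2 was not called and Chrna6 and Tubb3 were. Thy1 stood at 1701, 1720 and 1847 CPM against 953, 1008 and 1009 CPM, but its product CD90.2 was one of the sort antigens, so its level and the gate cannot be told apart. Other members were not called: Slc17a6, the vesicular glutamate transporter Vglut2, stood at 1304, 1133 and 1183 CPM against 839, 653 and 1049 CPM (edgeR adjusted p = 0.155), and the neurofilament gene Nefl at 2727, 3064 and 3306 CPM against 2247, 2473 and 2764 CPM (0.478).

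Subtype markers moved the same way in part. Of 31 tested, 5 were lower and 0 higher (median -0.47), and without replicate 3, 8 were lower (median -0.60). After crush the same list had 7 higher and 1 lower with a median of 0.21. Tusc5, a membrane protein gene, had one of the larger decreases at a high level, standing at 762, 695 and 762 CPM across NT and 193, 374 and 272 CPM across SSRP1KO (log2 -1.40 ± 0.25, edgeR adjusted p = 0.00344). The neuropeptide genes Cartpt and Penk and the calcium-binding protein gene Calb2 were also called, Calb2 only with replicate 3 included. Calb1, a related calcium-binding protein gene, stood at 136, 150 and 137 CPM against 58.4, 43.0 and 125 CPM and passed only without replicate 3 (-1.48, 0.00135). Opn4, the photopigment melanopsin, overlapped between groups, at 44.2, 43.6 and 41.6 CPM against 29.3, 23.6 and 49.8 CPM.

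Genes of excitability were among the lower genes. Of 28 voltage-gated channel genes, 10 were lower and 0 higher with a median of -0.48, and without replicate 3 the count was 17 and the median -0.64. Kcnd2, the A-type potassium channel Kv4.2, stood at 111, 134 and 146 CPM across NT and 38.2, 61.2 and 59.8 CPM across SSRP1KO (log2 -1.30 ± 0.24, edgeR adjusted p = 0.00409). Kcnip4, which encodes a subunit that associates with Kv4 channels, stood at 597, 547 and 623 CPM against 217, 177 and 360 CPM (-1.23, 0.00676). Scn1a, the sodium channel Nav1.1, stood at 1184, 1179 and 1223 CPM against 676, 669 and 1070 CPM (-0.57, 0.0277), with replicate 3 nearest NT. Kcnab2, a potassium channel beta subunit, stood at 326, 322 and 362 CPM against 201, 230 and 240 CPM (-0.59, 0.00635). Cacna1a, Cacna2d1, Cacnb4, Kcnc1, Kcnc2 and Scn8a were also called.

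Of 28 neurotransmitter receptor genes, 6 were lower and 0 higher (median -0.47), and 11 were lower without replicate 3. Gabrb2, a GABA-A receptor subunit, stood at 403, 405 and 416 CPM across NT and 253, 215 and 251 CPM across SSRP1KO (log2 -0.77 ± 0.13, edgeR adjusted p = 0.00174), and Chrnb3 and Grm4 were also called. Of 25 synaptic vesicle and release genes only Cplx2 was called, at 656, 627 and 690 CPM against 362, 403 and 440 CPM (-0.71, 0.00642), although the list median was -0.35. Syt1, the calcium sensor of release, stood at 2369, 2220 and 2373 CPM against 1285, 1534 and 1925 CPM and missed the threshold (0.0548). Without replicate 3, 4 of these genes were lower, Cplx1, Cplx2, Rims1 and Syt1 (0.0135). Of 32 cytoskeleton and axonal transport genes, Kif1b, Stmn2, Tuba4a and Tubb2b were lower and none was higher (median -0.45), a share near that of all genes above 100 CPM. Without replicate 3, 9 were lower (median -0.55). Protocadherin genes gave Pcdh7 and Pcdh10 as lower out of 26, with Pcdhgc3 higher when replicate 3 was left out, and many of this family share sequence, so their counts can be split between copies.

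Cholesterol biosynthesis was the metabolic list with calls. Of 21 genes, 2 were lower (median -0.40), and without replicate 3, 8 were lower (median -0.62). Srebf2, the transcription factor that drives the pathway, stood at 116, 117 and 131 CPM across NT and 85.4, 72.5 and 92.5 CPM across SSRP1KO, with no overlap (log2 -0.54, edgeR adjusted p = 0.0199). The genes added without replicate 3 were Cyp51, Fdft1, Hmgcs1, Hsd17b7, Insig1 and Msmo1. Scd3, a fatty acid desaturase gene, went the other way with the smallest adjusted p of the higher genes in the core set described later (9.98e-06): it stood at 3.65, 3.48 and 4.77 CPM across NT and 30.3, 37.5 and 16.4 CPM across SSRP1KO, and it has close copies among which reads may be split.

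Cytosolic ribosomal protein genes lay above 0 in 67 of 73, with a median of 0.44, yet only 4 passed, Rpl17, Rpl9, Rps12 and Rps20. Without replicate 3, 15 were higher and the median was 0.53. The sum over the family was 2398, 2299 and 2416 CPM in NT and 3086, 3926 and 2451 CPM across SSRP1KO, so replicate 3 stood near NT. Rps12 stood at 3.95, 4.78 and 5.36 CPM against 15.7, 17.2 and 7.37 CPM (log2 1.51 ± 0.25, edgeR adjusted p = 0.00174). These genes have many processed pseudogenes, and the handling of reads that match several places is not given in the sources used here. Nuclear genes of oxidative phosphorylation (69 tested, median -0.07), the proteasome (32, -0.11) and protein folding in the endoplasmic reticulum (25, 0.04) gave 0 calls in the 30-library edgeR fit, with 3, 4 and 1 members at an unadjusted p under 0.05 and 0, 1 and 1 calls by DESeq2. Without replicate 3, edgeR called 1, 2 and 0 of them lower.

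Chromatin genes, the setting in which FACT works, showed little. None of 21 FACT and other histone chaperone genes, 29 transcription elongation genes, 29 chromatin remodelling and histone mark genes or 33 DNA damage genes was called by edgeR, with medians of 0.08, 0.04, 0.01 and 0.05. In the same order, 3, 3, 2 and 4 members had an unadjusted p under 0.05 and DESeq2 called 2, 0, 1 and 0. Without replicate 3 the histone chaperone genes Anp32e and Npm1 were higher (log2 0.69 and 0.95, edgeR adjusted p = 0.00169 and 0.0052), as were Polr2a, the largest subunit of RNA polymerase II (0.49, 0.0382), and Ctr9 of the PAF complex (0.52, 0.0422), while Smarca4, the ATPase BRG1, was lower (-0.55, 0.0283). Polr2a stood at 138, 143 and 132 CPM across NT and 191, 196 and 135 CPM across SSRP1KO, the third library again lying in the NT range. Of 19 histone genes, H2afj, an H2A variant, was higher, at 8.45, 12.9 and 8.18 CPM against 18.1, 22.8 and 15.4 CPM (0.93, 0.0215). Without replicate 3, H3f3b was also higher (0.97, 0.0244) and H2afy2, a macroH2A gene, lower (-0.62, 0.0424). Transposon silencing and nucleic acid sensors gave 0 calls of 24 in either edgeR fit (median 0.0014), with 4 at an unadjusted p under 0.05 in each and 0 and 1 calls by DESeq2.

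Markers of some other cells were highest in SSRP1KO replicate 3. The rod, cone, bipolar, horizontal and oligodendrocyte lists had 0 calls in the 30-library fit. Their medians were 0.0046, -0.0059, -0.057, 0.04 and -0.18. Of 21 microglia and macrophage markers, 7 were higher in the 30-library fit (among them C1qa, C1qb, Cd68, Lyz2, Mrc1 and Tyrobp), with a median of 1.93, and without replicate 3 the median was 1.03 and edgeR called 0, with 6 at an unadjusted p under 0.05 and 1 called by DESeq2. Tyrobp, an adaptor of myeloid receptors, stood at 6.90, 3.97 and 7.37 CPM across NT and 16.5, 28.1 and 125 CPM across SSRP1KO. The resting microglia markers P2ry12 and Tmem119 were low in all 6 libraries (1.78 to 6.09 and 0.917 to 6.46 CPM). Of 17 amacrine markers, Gad1, Slc32a1 and Th were called, and of 19 markers of Mueller glia and astrocytes, Apoe and Vim, and without replicate 3 only Vim passed. Apoe stood at 69.5, 59.2 and 13.5 CPM against 97.6, 132 and 694 CPM.

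Several of the largest increases belonged to this pattern, the rule for naming having taken the largest differences above 5 CPM. Clec7a, the beta-glucan receptor of myeloid cells, stood at 0.70, 1.34 and 0.99 CPM across NT and 11.4, 10.2 and 50.1 CPM across SSRP1KO (log2 4.55 ± 0.91, edgeR adjusted p = 0.00703; 3.40 and 0.0184 without replicate 3). Gpnmb, a glycoprotein of phagocytes and pigment cells, stood at 21.7, 15.3 and 8.14 CPM against 55.6, 95.8 and 458 CPM (3.76, 0.00394), and Tac2, a tachykinin gene, at 6.0, 1.70 and 1.39 CPM against 10.5, 18.0 and 120 CPM (4.05, 0.00676). Both kept their call without replicate 3 (0.0156 and 0.0488). Cryba1, a lens crystallin, stood at 0, 0.202 and 0.0367 CPM against 2.73, 0.246 and 33.3 CPM, and its call was lost without replicate 3 (0.0829). Vcam1, Mrc1, Wfdc17, Gp49a and Anpep were likewise highest in replicate 3 and lost their calls without it, while H2-M2, Myof and Slc6a12 kept theirs. Whether these cells or transcripts account for other differences was not tested.

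Another set was high in SSRP1KO replicates 1 and 2 and low in replicate 3. Cdhr3, a cadherin-related gene, stood at 0.10, 0.0405 and 0.183 CPM across NT and 7.28, 13.0 and 0.0599 CPM across SSRP1KO. Tmc1, a mechanotransduction channel gene best known from hair cells, stood at 0.20, 0.243 and 0.294 CPM against 6.86, 5.05 and 0.0599 CPM, and Pawr, a pro-apoptotic gene, at 0.25, 0 and 0.147 CPM against 8.18, 4.00 and 0.30 CPM. The 3 genes passed in both fits, with edgeR adjusted p of 0.00494, 0.00194 and 0.00193 over 30 libraries and 4.91e-05, 4.46e-08 and 1.62e-05 without replicate 3. Mmrn1, Dpys, Scn11a, Fam107a, Tph2, Cacna1s, Myo18b and Ak7 were likewise higher in replicates 1 and 2 than in replicate 3, with log2 differences of 3.43 to 6.91 without replicate 3. The 11 genes were named as the largest increases of the fit without replicate 3, which favours genes that are lower in that library. In Pawr, Fam107a and Myo18b replicate 3 exceeded the NT range, and in the other 8 it lay in or below that range.

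Among the lower genes, Fam19a1, which encodes a secreted neuronal protein, showed that order at a higher level: 54.7, 57.6 and 54.0 CPM in NT and 15.0, 14.7 and 47.1 CPM across SSRP1KO (log2 -1.90 and edgeR adjusted p = 5.87e-08 without replicate 3, and -1.12 and 0.0168 with it). Zfp105, a zinc-finger gene, was low in all 3, at 10.8, 11.9 and 13.6 CPM against 4.64, 2.58 and 3.48 CPM (-1.75, 0.00756), as was Olfm2, an olfactomedin gene, at 47.1, 36.4 and 48.7 CPM against 18.9, 17.7 and 13.5 CPM (-1.40, 0.00586). Prokr1, Pars2, Lrriq1, Chrm2, Ddah2, Gdf6, Cd24a and Vstm2l were the other large decreases, at NT means under 20 CPM, with log2 differences of -1.37 to -1.91. Without replicate 3, Prokr1, Chrm2, Gdf6 and Vstm2l lost their calls (edgeR adjusted p of 0.0632 to 0.0923). Without crush, the interferon-induced genes named by the rule, Ifit1, Ifi44, Samd9l and Eif2ak2, rested on NT replicate 3. Ifit1 stood at 9.25, 7.57 and 264 CPM across NT and 5.79, 5.05 and 4.50 CPM across SSRP1KO. Over the 4 crush times, a contrast without that uncrushed library, Ifit1 was also lower (log2 -2.20, edgeR adjusted p = 0.00372). There 17 of 34 interferon-stimulated genes were lower and 0 higher, against 7.89% and 8.24% of all tested genes.

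A core of 89 genes, 29 higher and 60 lower, was called in the 30-library fit and in each fit that left out 1 of the 6 uncrushed libraries. This set was drawn up after the values were seen and carries no test. Its higher genes had a median log2 difference of 2.63 and included Atf3, Cdkn1a, Dusp16, Scd3, Rps12, Clec7a, Gpnmb, Tmc1, Pawr and the innate immune genes Aim2, Tlr2 and Lgals3. Aim2, a sensor of cytosolic DNA, stood at 2.80, 2.31 and 1.43 CPM across NT and 9.33, 10.5 and 11.03 CPM across SSRP1KO, so replicate 3 did not stand out for it. Its lower genes had a median of -0.81 and included Thy1, Rbpms, Pou4f1, Chrnb3, Ebf1, Kcnd2, Kcnab2, Kcnip4, Cplx2, Gabrb2, Gabbr2 and Pcdh10. Cdh4, a cadherin gene, stood at 106, 109 and 117 CPM against 46.5, 56.7 and 61.8 CPM, lower by a log2 difference of -1.01 ± 0.14. Rbfox1, a neuronal splicing regulator, stood at 661, 584 and 683 CPM against 324, 314 and 416 CPM.

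The 24 crush libraries, in which NT and SSRP1KO share no library with the uncrushed comparison, gave a separate reading of the same genes. Over the 4 crush times, 1316 genes were higher (8.24%) and 1259 lower (7.89%) in SSRP1KO. Of the 230 genes higher without crush, 179 (77.8%) had the same sign after crush, where 52.8% of all tested genes were higher, 64 were called in the same direction and 7 in the opposite one. Of the 396 lower genes, 312 (78.8%) had the same sign, where 47.2% of all tested genes were lower, with 150 called the same way and 6 the opposite way. The sizes shrank, from a median log2 difference of 2.37 to 0.41 for the higher genes and from -0.67 to -0.18 for the lower ones. Selection of the called genes on the first set favours larger values there. The shares of all tested genes were not matched on level. Over the crush times, all tested genes with a mean level under 1 CPM had a median of 0.47, and those above 100 CPM one of -0.12. How much of the agreement goes with level was not tested. Without replicate 3 the same signs were 311 of 374 (83.2%) and 624 of 764 (81.7%). The core set did not keep its signs more often: they were the same in 18 of its 29 higher and 45 of its 60 lower genes. Of these, 14 and 27 were called the same way after crush.

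The days after crush differed for the higher genes. At 1, 2, 3 and 4dpc, 127, 160, 179 and 164 of the 230 had the same sign. Their median log2 differences were 0.08, 0.41, 0.58 and 0.41, lowest at 1dpc. The share of all genes with that sign was taken over the 4 crush times and not for single days. Of the 396 lower genes 304, 304, 289 and 302 had the same sign, with medians of -0.12, -0.17, -0.17 and -0.25. Sex also differed by day. At 1dpc it was the reverse of the uncrushed libraries, with a male share of 99.98% to 99.99% in SSRP1KO and 0.106% to 46.3% in NT. At 2dpc the male share was 99.98% to 99.99% in SSRP1KO and 99.99%, 99.97% and 0.164% in NT. At 3dpc SSRP1KO had the lower share, 0.259% to 63.9% against 78.4% to 99.9%, as at 4dpc, with 0% to 0.0786% against 0% to 31.9%. With the male share as a covariate, 7 genes were called, 5 of them also called without it. The differences without crush kept their sign in 230 of 230 and 395 of 396 genes, all selected on those differences. Sex and sgRNA coincide without crush, so the covariate drew mainly on the crush libraries and cannot tell sex from sgRNA.

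**Figure D3:**
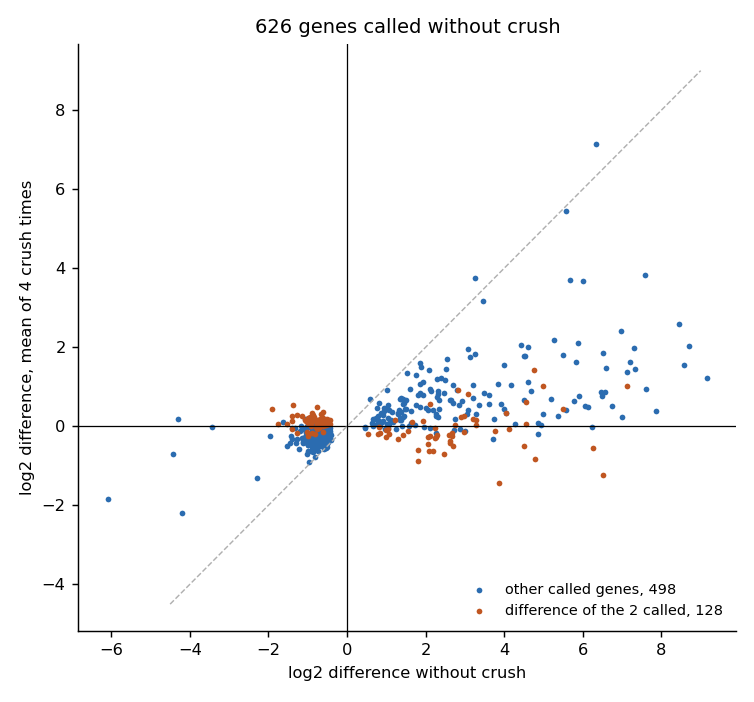
Log2 difference, SSRP1KO minus NT, of the 626 called genes without crush (x axis) and as the mean of the 4 crush times (y axis), with equal values on the dashed line and 128 genes whose 2 differences differed in the test of the difference coloured apart. Lower genes lie mostly in the lower left, with a median of -0.67 on the x axis and -0.18 on the y axis, and most higher genes lie below the dashed line.

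The difference between the uncrushed and the crush-time effect was tested for every gene, and 70 genes had a higher value without crush (0.438%) and 134 a lower one (0.839%). These 204 calls depended on the setting: edgeR gave 0 with the male share as a covariate, with 1059 genes at an unadjusted p under 0.05. It gave 59 to 272 when 1 uncrushed library was left out, with 59, 62 and 128 without NT replicate 2, NT replicate 3 and SSRP1KO replicate 2. DESeq2, without the covariate, gave 472. Among the 626 called genes, 56 of the higher and 72 of the lower ones differed, in each case with the larger effect in uncrushed cells. The 626 were selected on the uncrushed difference, which is part of this test, and that favours this direction. Atf3 was higher without crush and lower after it (log2 2.05 and -0.44, adjusted p of the difference 8.36e-05 by edgeR). Dusp16 had the same turn (0.98 and -0.26, 0.00287), and Cdkn1a stood at 1.44 and -0.23, the second value not passing on its own (0.195). Chrnb3 was lower without crush and not after it (-0.997 and 0.09, 0.00313), as were Gabrb2 (-0.77 and -0.01, 0.00778), Kcnab2 (-0.59 and 0.05, 0.0113) and Cplx2 (-0.71 and 0.04, 0.0144). Calb1 changed sign, from -0.90 without crush, which was not called, to 0.74 after it. Other genes kept their direction: Ebf1 (-0.79 and -0.49), Rbfox1 (-0.87 and -0.52), Rora (-0.66 and -0.47), Klf7 (-0.68 and -0.49) and Stmn2 (-0.61 and -0.46) were called lower in both, and Scd3 (2.82 and 0.91), Rps12 (1.51 and 0.66), H2afj (0.93 and 0.45) and Hspa1a (1.01 and 0.92), a heat shock gene with a near-identical copy, higher in both. By list, the integrated stress response turned from 3 higher and 0 lower without crush to 0 higher and 20 lower after it, while the identity list had 9 lower in each, with 1 higher after crush, and its median went from -0.50 to -0.19, with 5 members differing in the test of the difference. Neurotransmitter receptors went from 0 higher and 6 lower to 6 higher and 4 lower (median 0.06), and voltage-gated channels from 0 and 10 to 5 and 7 (median -0.09).

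The levels of many genes shifted with their abundance. Genes with a mean level under 1 CPM had a median log2 difference of 0.82, those at 1 to 5 CPM 0.44, those at 5 to 20 CPM 0.04, those at 20 to 100 CPM -0.08 and those above 100 CPM -0.24, and the share called lower went from 0.109% to 11.1%. After crush the same bins had medians of 0.47, 0.21, 0.02, -0.04 and -0.12. More autosomal genes were detected in 2 SSRP1KO libraries at equal depth: at 14571605 counts the expected numbers were 15498, 15189 and 15602 in NT and 16526, 15998 and 15560 in SSRP1KO. SSRP1KO replicate 3 lay in the NT range and replicates 1 and 2 above it. The myeloid and lens marker sums given above were highest in replicate 3 and the rod sum was not, and their part in the shift was not tested.

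**Figure D4:**
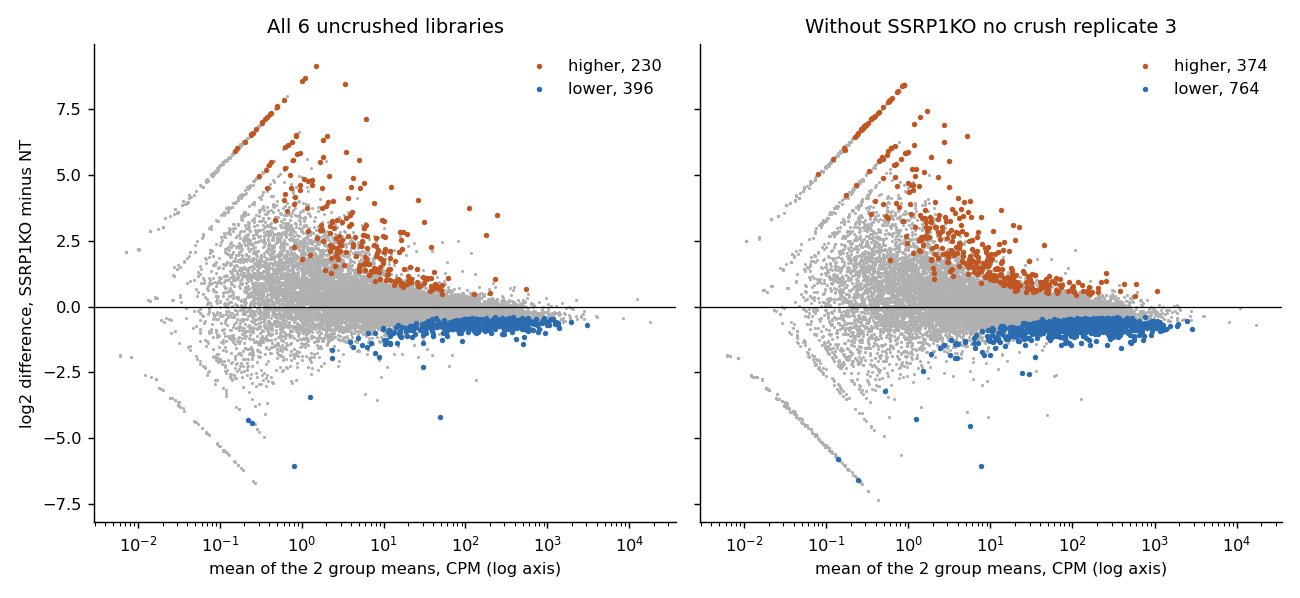
Log2 difference, SSRP1KO minus NT without crush (y axis), of autosomal genes against their mean level in CPM (x axis, log scale), with called genes coloured, for all 6 libraries (left) and without SSRP1KO replicate 3 (right). Genes with no count in a group lie on the outer diagonals, where the fitted difference is no measured size. Called genes lie above 0 mostly at low levels and below 0 mostly at high levels, the median NT level being 1.32 CPM for the higher and 155 CPM for the lower genes.

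Long genes were lower. Among genes above 1 CPM, the median log2 difference was 0.03 for spans up to 10 kb, 0.01 for 10 to 30 kb, -0.05 for 30 to 100 kb, -0.15 for 100 to 300 kb and -0.34 above 300 kb, where 14.3% were called lower. The 396 lower genes had a median span of 77.1 kb and 40.7% exceeded 100 kb, against 23.2 kb and 14.2% of all genes tested, and the higher genes had 21.4 kb and 13.0%. Within each library, the median log2 level of genes over 100 kb minus that of genes up to 10 kb was 1.80, 1.78 and 1.80 in NT and 1.54, 1.40 and 1.73 in SSRP1KO. Each SSRP1KO library lay below each NT library, by a mean of -0.23, and the exact two-sided permutation test gave p = 0.1, the smallest that 3 against 3 allows. Long genes stood at higher levels than short ones in each of the 6 libraries, and span and level were not separated. Bin medians after crush ran from 0.08 to -0.17.

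Counts over interspersed repeats gave a second readout of the same libraries. The deposited table held 115882 short genomic intervals annotated as SINE, 18219 as LINE and 17540 as LTR elements. SINEs are short retroelements copied by the LINE machinery, and B2 and B1 (Alu family) are the abundant mouse kinds, found mostly in introns and between genes. Reads over SINE intervals amounted to 0.959%, 1.04% and 0.910% of the gene counts in NT and to 2.05%, 1.99% and 1.74% in SSRP1KO. The means were 0.971 ± 0.068 and 1.93 ± 0.164 (SD, n = 3 each), each SSRP1KO library lay above each NT library, and the exact two-sided permutation test gave p = 0.1, its smallest value, and 0.15 after adjustment over the 3 repeat classes. SSRP1KO replicate 3 was the lowest of its group and still 1.67 times the highest NT library.

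LTR intervals took 0.296%, 0.313% and 0.272% in NT and 0.413%, 0.388% and 0.416% in SSRP1KO (exact p = 0.1, adjusted 0.15), and LINE intervals 1.01%, 0.946% and 1.21% against 1.17%, 0.752% and 0.645%, which overlapped (exact p = 0.3). The LINE sum rested on few intervals, the 100 most counted of which held 76.2% to 93.9% of it, and without them LINE reads were 1.67-fold higher in SSRP1KO. Among SINE families, the ratio of SSRP1KO to NT was 2.53 for B2, 1.62 for Alu (B1), 1.37 for B4, 1.21 for ID and 1.18 for MIR. By place, it was 2.67 for SINE intervals inside a gene and off its exons, 2.26 for those between genes and 1.23 for those touching an exon. Leaving out the 100 or the 1000 most counted SINE intervals gave ratios of 2.21 and 2.53, so the difference did not rest on a few of them. Intervals inside genes and off exons were also higher for LINE (1.60-fold) and LTR (1.67-fold). Reads over introns can come from unspliced RNA or from DNA as well as from repeats, and the count tables do not tell these apart.

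**Figure D5:**
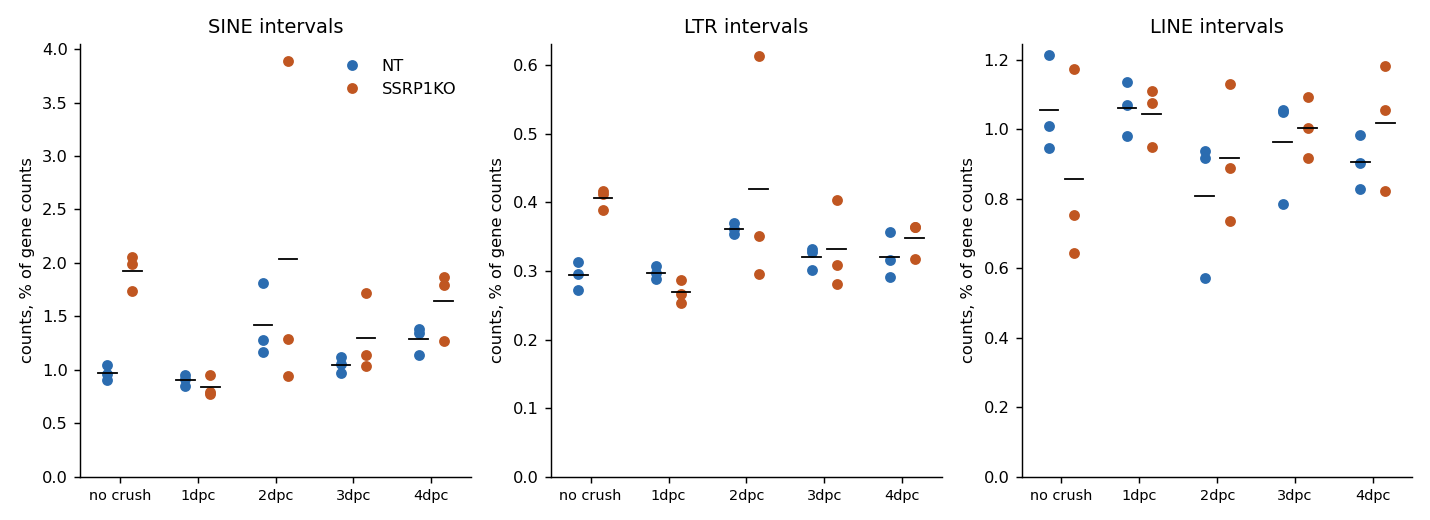
Reads over repeat intervals in percent of each library's gene counts (y axis), by time and group, for SINE, LTR and LINE intervals, with a point for each library and a line for each mean. Uncrushed SSRP1KO libraries lie at 1.74% to 2.05% for SINE and uncrushed NT libraries at 0.910% to 1.04%.

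After crush the SINE share did not separate the groups in the same way. Means in NT and SSRP1KO were 0.904% and 0.841% at 1dpc, 1.42% and 2.04% at 2dpc, 1.05% and 1.30% at 3dpc, and 1.29% and 1.64% at 4dpc. At 2dpc the SSRP1KO libraries ran from 0.939% to 3.89%, and the highest, replicate 5, was also the crush library that correlated least with its group.

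Promoter sequences of the called genes differed in composition from those of all tested genes. RefSeq windows of GRCm38.p6, from 250 bases before to 50 after each start site, were found for 11768 of the 15965 tested genes, 173 of the 230 higher and 295 of the 396 lower ones. A gene counted if any of its windows held the letters, so genes with several windows had more chances of a match. The letters GGGCGG, the GC box, on either strand, occurred in 72.2% of lower, 53.2% of higher and 63.8% of tested genes. Among all 27025 symbols with a window the share was 38.2%. TATAAA occurred in 7.80%, 13.3%, 9.51% and 15.7%, and TGANTCA, the letters of the AP-1 site, in 6.10%, 13.9%, 6.71% and 8.97%. Without replicate 3 the GC box stood at 72.3% of lower and 54.9% of higher genes, TATAAA at 8.35% and 14.8%, and TGANTCA at 5.51% and 9.75%. Tissue-wide and highly expressed genes have GC-rich promoters in general, and levels were not matched between these sets. The cyclic AMP element TGACGTCA occurred in 4.05% of higher, 2.03% of lower and 3.37% of tested genes. That order turned round without replicate 3 (2.53% of higher and 3.73% of lower). CCAAT occurred in 42.8% of higher, 39.0% of lower and 41.7% of tested genes. A match describes the letters in a window and not binding.

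Windows of 3 genes described above show the range: Atf3 and Kcnd2 as a higher and a lower gene with GC boxes, and Clec7a as a higher gene of the myeloid set with none. They lie at chr1:191183284-191183583 on the minus strand, chr6:21215096-21215395 on the plus strand and chr6:129472730-129473029 on the minus strand of GRCm38.p6, and each is written 5′ to 3′ on the gene's strand. Capitals mark GGGCGG or its reverse complement in Atf3 and Kcnd2, with 5 matches in the first, some overlapping, and 1 in the second, and the single TATAAA, here as its reverse complement, in Clec7a.
Atf3: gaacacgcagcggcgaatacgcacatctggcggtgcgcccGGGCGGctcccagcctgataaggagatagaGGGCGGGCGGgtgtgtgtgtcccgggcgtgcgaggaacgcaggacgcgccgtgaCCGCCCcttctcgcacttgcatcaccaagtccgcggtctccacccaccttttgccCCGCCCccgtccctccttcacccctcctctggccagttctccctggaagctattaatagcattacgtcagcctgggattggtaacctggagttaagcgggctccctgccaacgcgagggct
Kcnd2: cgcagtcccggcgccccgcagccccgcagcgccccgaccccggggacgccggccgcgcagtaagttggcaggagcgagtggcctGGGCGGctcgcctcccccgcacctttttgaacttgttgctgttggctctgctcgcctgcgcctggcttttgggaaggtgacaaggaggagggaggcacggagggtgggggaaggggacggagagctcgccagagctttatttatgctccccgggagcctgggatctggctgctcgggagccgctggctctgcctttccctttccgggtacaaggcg
Clec7a: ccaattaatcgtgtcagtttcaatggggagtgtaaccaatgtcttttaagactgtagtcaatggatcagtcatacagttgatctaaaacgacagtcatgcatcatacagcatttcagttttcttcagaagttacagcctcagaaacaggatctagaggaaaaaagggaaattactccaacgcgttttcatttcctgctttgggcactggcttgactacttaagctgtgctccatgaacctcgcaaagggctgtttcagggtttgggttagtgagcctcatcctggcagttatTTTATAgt
Atf3 averaged 3.25 CPM in NT and 13.5 CPM in SSRP1KO, Kcnd2 130 and 53.1 CPM, and Clec7a 1.01 and 23.9 CPM.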

How the data were processed

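The study sequenced total RNA from sorted mouse retinal ganglion cells in 10 groups of 3 libraries, of which the 6 uncrushed libraries were compared here. As deposited by the authors, values are whole-number read counts, for genes in one table and for repeat-annotated intervals in another. The submitters' processing notes name GRCm38 (mm10), bcl2fastq 2.17, STAR and HTSeq. The annotation, the strand setting and the handling of reads with several matches are not given in these sources, so close copies, overlapping genes and antisense partners carry counts that may be split or shared.

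Of 24060 symbols, 27 had become calendar dates (at most 0.275% of a library's counts) and were left out. Library totals ran from 9715972 to 34420978 counts. Counts were fitted with edgeR 4.0.16 (R 4.3.3): TMM scaling, filterByExpr, 1 coefficient per group over 30 libraries, quasi-likelihood tests (two-sided) and Benjamini-Hochberg adjustment over all genes tested, with a threshold of 0.05. CPM uses the TMM-scaled library size, and log2 differences are SSRP1KO minus NT ± SE. No replicate pair was duplicated (chi-square per degree of freedom of at least 26.4). The reads carry no molecular identifiers in these tables, so floors, at 3 counts over a group, cover counting error only. Genes were named by rule: Ssrp1 and Supt16, then the 12 largest changes each way among called genes with at least 5 CPM in the higher group and no overlap between groups, in the fits with and without SSRP1KO replicate 3, and up to 2 members of a list each way. Genes outside this rule, among them Thy1, Rbpms, Pou4f1, Scd3, Aim2, Cdh4 and the uncalled genes set beside called ones, were chosen after their values were seen. Some genes that the rule or a list names are not reported here. The comparison, the 43 gene lists and their members were chosen with earlier results of these data known. Repeat reads were summed per class, divided by the library's gene counts, and compared with exact permutation tests over 20 arrangements. Promoter windows are RefSeq's. Alternatives were DESeq2 1.42.0, its size factors, no count filter, the uncrushed libraries alone, a male-share covariate, the replicate number as a block and the omission of each library. The omission of the 2 crush libraries least like their group was added after the data were seen. Python 3.11.15, pandas 2.3.3, numpy 2.4.6 and matplotlib 3.10.9 were used, and the fit was tested on simulated counts.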

Additional observations from a re-analysis of the deposited data

Results flagged for a closer look

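For 29 of the genes named, the SSRP1KO minus NT difference without crush differed from its mean over the 4 crush times in a test of the difference itself (edgeR, adjusted p under 0.05, over 15965 genes). The value given is the log2 difference without crush minus that over the crush times. Among injury and stress genes it was 2.50 for Atf3, 1.67 for Cdkn1a, 1.12 for Apaf1, 1.24 for Dusp16, 3.13 for Gdf15, 2.98 for Creb5, 0.84 for Sox11 and 3.96 for Pawr. Among genes of ganglion cells and neuronal function it was -1.09 for Chrnb3, -1.64 for Calb1, -1.33 for Tusc5, -0.64 for Kcnab2, -0.76 for Cplx2, -0.76 for Gabrb2, -0.68 for Pcdh10 and -1.92 for Vstm2l. The cholesterol gene Srebf2 was at -0.56, and the lower genes Prokr1, Zfp105, Pars2 and Olfm2 at -2.35, -1.80, -1.59 and -1.54. Genes that were highest in SSRP1KO replicate 3 made up the rest, with 6.09 for Cryba1, 4.48 for Gp49a, 3.93 for Clec7a, 4.21 for Slc6a12, 3.72 for Tac2, 3.89 for Gpnmb, 3.04 for Tyrobp and 2.35 for Vim. Without SSRP1KO replicate 3 the difference no longer passed for 11 of them, Cryba1, Gp49a, Clec7a, Tac2, Tyrobp, Vim, Creb5, Apaf1, Prokr1, Pars2 and Vstm2l (edgeR adjusted p of 0.0522 to 0.343). Values that shrank by over 1.5 times there were 3.07 for Cryba1, 2.96 for Gp49a, 1.91 for Tac2, 2.46 for Gpnmb, 1.69 for Tyrobp and 1.85 for Creb5. With the male share of each library as a covariate, edgeR called 0 genes in this test, against 204 without it, and 1059 had an unadjusted p under 0.05. DESeq2, without the covariate, called 472.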

How the results depend on the processing

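Against 626 calls without crush, DESeq2 gave 1170, the 6 uncrushed libraries alone 4 and the male-share covariate 7. The omission of the 2 crush libraries least like their group gave 1686, and the omission of 1 uncrushed library 164 to 1138. Against the 1138 calls without SSRP1KO replicate 3, the same settings gave 566 for the 5 libraries alone, 177 with the covariate, 2313 without the 2 crush libraries and 213 to 1130 with 1 more library left out; there a group of 1 or 2 libraries is taken to vary like the others. With the covariate the 626 genes kept their sign in 230 of 230 and 395 of 396. Errors were larger (median SE 0.88 against 0.58, and 0.25 against 0.16), and Ssrp1 was at 0.29. This fit cannot tell sex from sgRNA in the uncrushed libraries, where they coincide. The test of uncrushed against crush effects gave 204 calls, 472 with DESeq2, 0 with the covariate and 618 without the 2 crush libraries. It gave 59 to 272 with 1 uncrushed library left out. A higher share of higher calls came with DESeq2 (53.2% against 36.7%) and without SSRP1KO replicate 1 or 2 (47.5% and 52.1%). As a percent of all interval counts, SINE differed by 2.79 and LTR by 0.421 percentage points. Among single genes, Vstm2l was at 0.06 with the covariate. With 1 uncrushed library left out, Eif2ak2 ran from -2.54 to 0.074 and Rsad2 from -4.53 to 0.65 (both highest without NT replicate 3). Sox11 ran from -0.030 to 0.58 (lowest without SSRP1KO replicate 1). Their causes were not tested. Leaving out a library also changes the genes that pass the count filter (17002 in place of 16621 over all chromosomes without SSRP1KO replicate 3).

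With the replicate number as a block (replicate block), the counts were 938, 1497 without SSRP1KO replicate 3, 1484 over the crush times against 2575, and 275 for the test of the difference. The labels tie no number to an animal or day, so the numbers were not taken to pair the samples. Deviations of same-numbered NT and SSRP1KO libraries correlated at r = 0.0148, 0.0288 and 0.0342. Those of unlike-numbered libraries were all lower, from -0.0278 to 0.00448, and whether the numbers mark a pairing was not tested.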
